A study of Homo sapiens with 10 samples.

Results

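The empty vector control of this study was sequenced as 2 long RNA libraries, and the values here describe how far these libraries, which carry the same label, differed from each other. They are 2 of the 10 libraries of the series and were taken by their labels alone, without regard to any measured value. BEAS-2B is an immortalised line derived from human bronchial epithelium. Cells had been grown in LHC9 medium with serum, given either a vector without insert or a vector for TAF1C, both described with the pCMV6 promoter, and kept as stable cells under G418. The other groups of the series are 3 long RNA libraries from the TAF1C cells and the small RNA libraries, 2 with the empty vector and 3 with TAF1C. The labels do not say whether libraries 1 and 2 of the empty vector came from separate cultures, clones or transfections, nor whether the stable cells were clonal or pooled.

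Total gene counts were 22809601 in empty vector library 1 and 28476151 in library 2, against 34212883 to 37533366 in the TAF1C libraries. Counts were summed by gene symbol and are given as CPM, a gene's count per 1000000 counts of its library. Of 55774 genes, the 14301 that reached 5 CPM in either empty vector library were kept, 12662 of them protein coding. At the edge of this limit, DUSP19 was kept with 2.94 and 5.02 CPM and NKX6-1 was not kept with 4.998 and 3.62 CPM. With 1 library on each side there was no replicate check and no test. A log2 ratio therefore stands beside an exact binomial 95% interval that covers counting error only, and "higher" means more than 2-fold unless another size is given. A gene kept through 1 library alone has its larger level there by that choice. Counts over kept members therefore describe a list and stand beside the same counts over all kept genes. The 3 TAF1C libraries marked genes that are low in them, meaning under 0.5 CPM in each, and their levels and spread are given beside those of the empty vector libraries.

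Several groups of genes named below belong to photoreceptors, the light-sensing neurons of the retina. These cells turn light into a change of membrane current through a cascade of an opsin, the G protein transducin, a cyclic GMP phosphodiesterase and a cation channel. The genes of the cascade are switched on by the homeodomain factors OTX2 and CRX, and their products are not part of the known repertoire of bronchial epithelium. MYCN, a MYC relative of developing neural tissue, lies on chromosome 2 near DDX1, which encodes an RNA helicase, and the pair is often copied together in neural tumours.

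The libraries were far apart. Of the 14301 kept genes, 3069 (21.5%) were higher in library 1 and 483 (3.38%) were higher in library 2, so that 24.8% lay past 2-fold in either direction and 10749 genes did not. Past 4-fold were 1680 genes and past 16-fold 543. The SD of the log2 ratio over the kept genes was 1.41 and its median -0.18. Between pairs of TAF1C libraries, under the same limits, 10, 5 and 7 genes lay past 2-fold (0.0909%, 0.0453% and 0.0635%), with an SD of 0.191, 0.154 and 0.179. On the 2-fold limit itself, HIST2H2AA4 was just past it at 23.8 and 47.6 CPM, and RNF113A just under it at 5.22 and 10.4 CPM.

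The direction of the bulk of genes rested on the scaling. Library 1 held counts on 45287 genes and library 2 on 36671, although library 2 was the deeper one, and 14250 genes lay between 0.5 and 5 CPM in library 1 against 8331 in library 2. TMM factors added 0.55 to every log2 ratio and DESeq2 size factors added 0.79. With TMM, 1957 genes were higher in library 2 and 1635 in library 1, which put 54.5% of the genes past 2-fold on the side of library 2. With DESeq2 factors the counts were 3660 and 1244 (74.6%), against 13.6% with library totals. A log2 ratio between -0.79 and 0 therefore turned positive under at least 1 of these scalings, and counts by list are by library totals unless a scaling is named. Ratios below -0.79 or above 0 kept their sign.

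**Figure D1:**
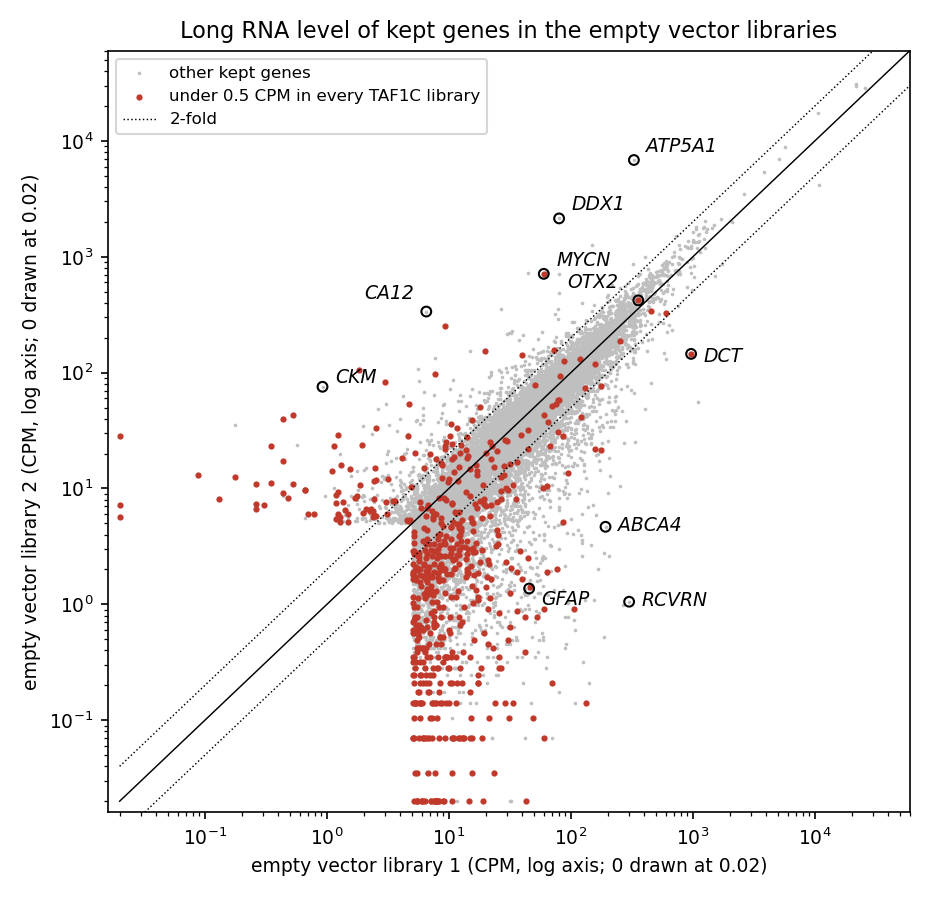
Each point is 1 kept gene, with its CPM in empty vector library 1 on the horizontal and in library 2 on the vertical log axis. Genes with a count of 0 are drawn at 0.02 CPM, red points mark genes under 0.5 CPM in every TAF1C library, and the dotted lines mark 2-fold. Points lie below the diagonal far more often (3069 genes past 2-fold) than above it (483), and DDX1, ATP5A1 and MYCN stand above it at high levels.

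**Figure D2:**
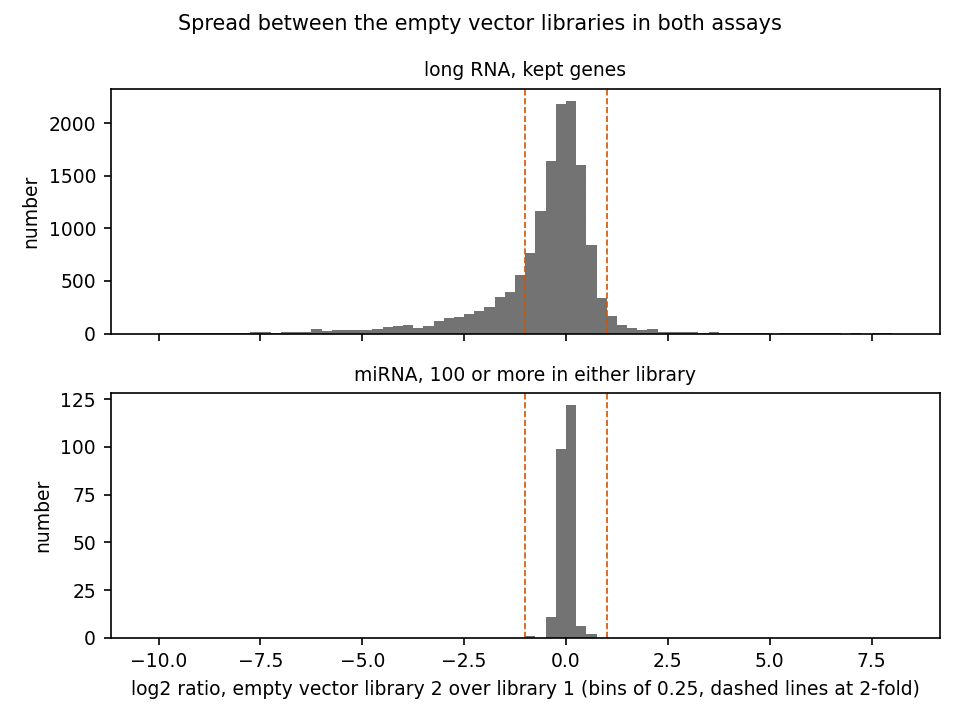
Histograms of the log2 ratio of library 2 over library 1 in bins of 0.25, for the 14301 kept long RNA genes above and for 241 miRNAs below, with dashed lines at 2-fold. The long RNA ratios have a long tail toward library 1, and 0 of the compared miRNAs reach the dashed lines.

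The 6 marker genes given for this comparison showed both directions. MYCN (ENSG00000134323) was at 59.97 CPM in library 1 and 712 CPM in library 2, and at 0.29, 0.19 and 0.29 CPM in TAF1C libraries 1, 2 and 3. Its log2 ratio was 3.57 (95% interval 3.49 to 3.65), which is 11.9-fold. DDX1 (ENSG00000079785) was at 80.1 CPM in library 1 and 2143 CPM in library 2, with 62.5, 71.9 and 66.9 CPM in the TAF1C libraries. The DDX1 level of library 1 was thus close to that of the TAF1C libraries while its MYCN level was not. For DDX1 the ratio was 4.74 (4.67 to 4.81), or 26.8-fold. CKM, the creatine kinase of muscle, was at 0.92 and 75.5 CPM, and at 0.71 to 1.33 CPM in the TAF1C libraries, a ratio of 6.36 (5.74 to 7.05).

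In the other direction, RCVRN, which encodes recoverin, the calcium sensor of photoreceptors, was at 300.4 CPM in library 1 and 1.05 CPM in library 2, where the TAF1C libraries held 0.72, 0.38 and 0.70 CPM. This is a log2 ratio of -8.16 (-8.72 to -7.64), or 285-fold. ABCA4, the retinoid transporter of the outer segment, was at 192 and 4.67 CPM, 41.2-fold apart, with 1.43 to 2.96 CPM in the TAF1C libraries. GFAP, the intermediate filament of astrocytes and of stressed Müller glia, was at 45.5 and 1.37 CPM, 33.2-fold apart, with 1.51 to 2.28 CPM in the TAF1C libraries. For RCVRN, ABCA4 and GFAP the level in library 2 was therefore near that of the TAF1C libraries. Both scaling alternatives kept all 6 markers past 2-fold in the same direction.

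**Figure D3:**
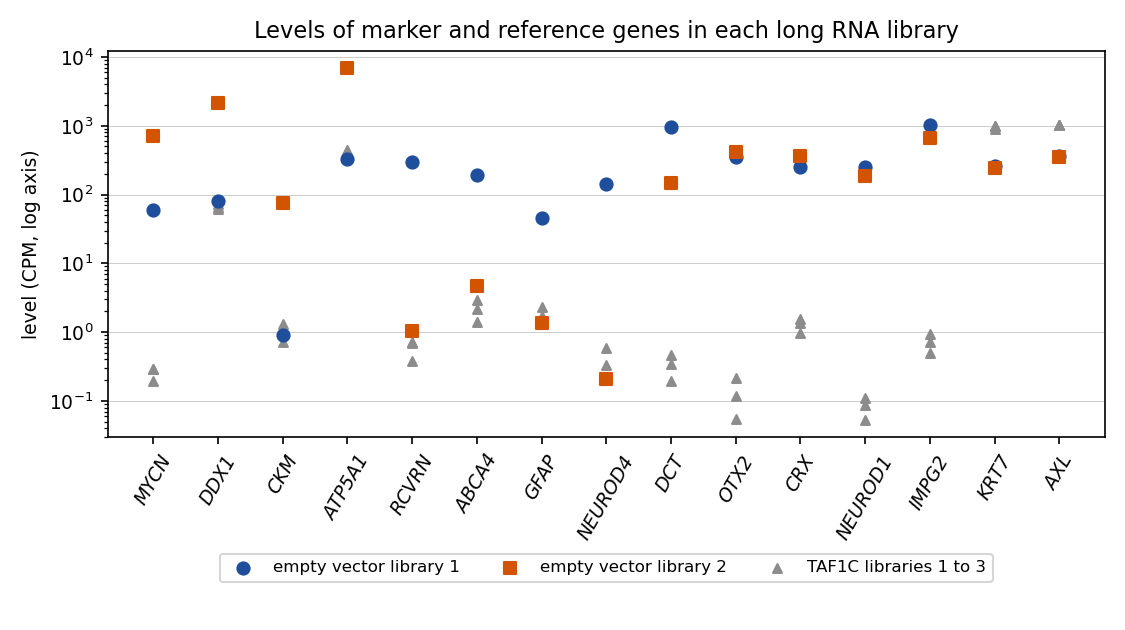
Levels in CPM, on a log axis, of 15 genes in empty vector library 1 (circles), empty vector library 2 (squares) and the TAF1C libraries (triangles). MYCN, DDX1, CKM and ATP5A1 stand higher in library 2, RCVRN to DCT stand higher in library 1, and OTX2, CRX, NEUROD1 and IMPG2 lie close together in both empty vector libraries and more than 100-fold above the TAF1C libraries.

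A set of retinal transcription factors was high in both empty vector libraries and, by library totals, close between them. OTX2 was at 357 and 420 CPM, against 0.21, 0.05 and 0.12 CPM in the TAF1C libraries. CRX, its photoreceptor relative, was at 249.7 and 358 CPM against 0.96 to 1.55 CPM. NEUROD1, a neural helix-loop-helix factor, was at 254.5 and 188 CPM against 0.05 to 0.11 CPM. These 3 genes lay within 2-fold between the libraries by library totals. CRX passed 2-fold with TMM (1.07) and DESeq2 factors (1.31), as OTX2 did with DESeq2 factors (1.03). RAX2, a homeobox gene of photoreceptors, was at 69.3 and 106 CPM, NRL, the rod factor, at 40.2 and 57.4 CPM, and ONECUT2 at 83.3 and 90.04 CPM. RAX2 (0.61 by library totals) and NRL also passed 2-fold toward library 2 with TMM and with DESeq2 factors. SOX11, a factor of immature neurons, was at 118 and 132 CPM, with 0 counts in TAF1C library 1.

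Other retinal factors separated the libraries. NEUROD4 was at 142 CPM in library 1 and 0.21 CPM (6 counts) in library 2, 673-fold apart. SIX6, an eye field factor, was at 70.4 and 0.21 CPM (6 counts), 334-fold apart. PRDM1, which favours photoreceptors over bipolar cells, was at 188.5 and 2.77 CPM, and THRB, the thyroid hormone receptor of cone precursors, at 252 and 10.4 CPM. RXRG, its nuclear receptor partner in cones, was at 283 and 38.3 CPM. PAX6, a factor of the developing eye, was at 12.4 and 2.46 CPM. In all, 25 of 32 listed retinal and forebrain factors were kept, 14 were higher in library 1 and 0 in library 2, beside 21.5% and 3.38% of all kept genes. Their median log2 ratio was -1.34 beside -0.18 for all kept genes. With TMM the counts were 12 and 4 and the median -0.79, with DESeq2 factors 11 and 6 and -0.47, so that some of the 11 factors within 2-fold by library totals passed it on the side of library 2, while NEUROD1 stayed within it (0.11 and 0.35).

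The visual cascade was far lower in library 2. Of 37 listed genes, 31 were kept, 28 were higher in library 1 and 0 in library 2, beside 21.5% and 3.38% of all kept genes. Their median log2 ratio was -4.01. This median stayed negative with TMM (-2.94) and DESeq2 factors (-3.22), where 25 and 23 genes were higher in library 1. Summed over the list, levels were 2090 CPM in library 1 and 718 CPM in library 2. The TAF1C libraries held 456 to 466 CPM, of which GNB1, a broadly expressed G protein subunit, gave 395 to 397 CPM. None of the 37 genes was without a count in either empty vector library. OPN1SW, the blue cone opsin, was at 12.1 and 3.44 CPM, with 3.92 to 4.11 CPM in the TAF1C libraries. The transducin subunit of rods, GNAT1, was at 24.95 and 1.41 CPM, and that of cones, GNAT2, at 25.5 and 3.90 CPM. Both alpha subunits were thus higher in library 1.

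Further along the cascade, PDE6B, a catalytic subunit of the rod phosphodiesterase, was at 102 and 15.7 CPM. The cone subunits PDE6C and PDE6H were at 26.3 and 0.88 CPM and at 46.0 and 1.41 CPM. CNGB1, a subunit of the rod channel, was at 52.9 and 1.58 CPM, and CNGA3, of the cone channel, at 38.5 and 5.79 CPM. GUCY2D, the guanylate cyclase that restores cyclic GMP, was at 63.9 and 1.83 CPM, and its activators GUCA1A and GUCA1B were at 64.1 and 1.90 CPM and at 34.1 and 0.63 CPM. The shutoff genes GRK1, the opsin kinase, and SAG, rod arrestin, were at 99.9 and 5.44 CPM and at 19.8 and 0.74 CPM. The exceptions were the G protein subunits GNB3, at 316 and 271 CPM against 6.003 to 8.39 CPM in the TAF1C libraries, and GNB1, at 261.5 and 303 CPM, and the exchanger SLC24A1, at 19.3 and 13.6 CPM. GNB3, which cones use, stood above the TAF1C libraries in both empty vector libraries, and GNB1 below them.

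Genes of photoreceptor structure divided the same way. Of 26 listed, 24 were kept, 19 were higher in library 1 and 0 in library 2, beside 21.5% and 3.38% of all kept genes. Their median was -2.26 (-1.71 with TMM, -1.40 with DESeq2 factors). IMPG2, a proteoglycan of the matrix around photoreceptors, was at 1026 CPM in library 1 and 672 CPM in library 2 against 0.49 to 0.94 CPM in the TAF1C libraries. Its relative IMPG1 was at 23.6 CPM in library 1 and had 1 count in library 2, a ratio of -9.39 with an interval of -14.70 to -6.91. The paralogs therefore differed between the libraries by unlike amounts. AIPL1, a chaperone of the phosphodiesterase, was at 252 and 346 CPM and lay within 2-fold, though past it with TMM (1.01) and DESeq2 factors (1.25). RBP3, the retinoid carrier between photoreceptors and pigment epithelium, was at 599 and 131 CPM. PRPH2, which shapes the rim of outer segment discs, was at 122 and 3.93 CPM. MPP4, a scaffold of the photoreceptor synapse, was at 108 and 0.14 CPM (4 counts), 771-fold apart. SAMD7 was at 7.67 CPM in library 1 with 0 counts in library 2, 72.8-fold apart when 0 is set to the floor of 3 counts. EYS, a matrix protein of the outer segment, was at 312.5 and 71.2 CPM, and CDH23, a cadherin of hair cells and photoreceptors, at 1101 and 56.2 CPM.

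**Figure D4:**
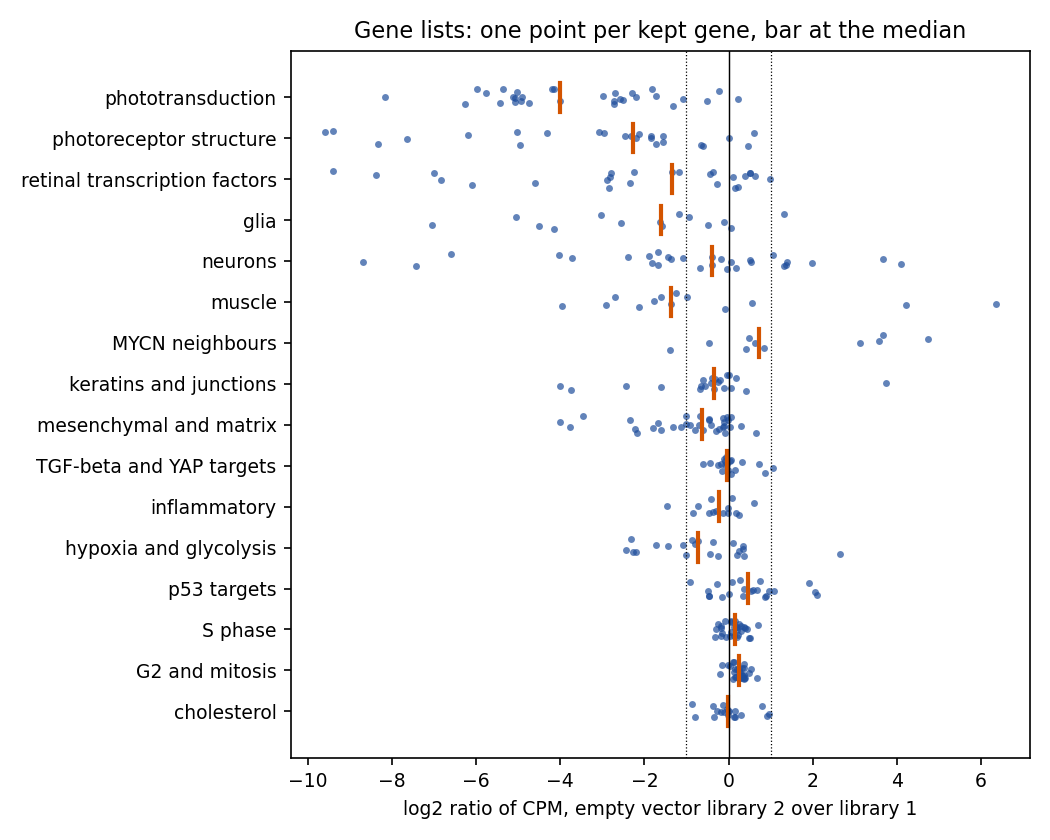
Each point is the log2 ratio (library 2 over library 1, by library totals) of 1 kept gene of the list named at the left, the orange bar is the list's median, and dotted lines mark 2-fold. The phototransduction list has its median at -4.01 and 0 genes past 2-fold on the side of library 2, whereas the S phase and G2 and mitosis lists have every gene within 2-fold.

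Promoter sequence was looked at because these genes are known targets of OTX2 and CRX, whose homeodomains bind TAATCC. The 300 bases from 250 before to 50 after the RefSeq gene start (GRCh38.p14) were searched on both strands for TAATCC and, for MYC family factors, for CACGTG. The first motif was present in 6.39% of 27305 promoters and in 4.47% of the 10550 kept genes that had one. Among phototransduction genes 7 of 28 promoters held it (25%), among photoreceptor structure genes 7 of 16 (43.8%), and among the retinal factors 4 of 26 (15.4%). CACGTG was in 7.43% of all promoters, in 10.0% of those of kept genes, in 9.39% of those of kept genes higher in library 2 (29 of 309) and in 7.13% of those higher in library 1 (135 of 1894). For TAATCC these shares were 3.24% and 6.34%. A match describes these letters in this window and is not a measured binding site. The promoters shown are those of CRX, within 2-fold by library totals, and of MPP4 and EYS, higher in library 1. They are shown because all 3 hold the motif while their ratios differ. They were chosen after the matches were seen. Capitals mark TAATCC, which reads GGATTA on the strand printed.
CRX promoter, chr19:47821687-47821986, plus strand: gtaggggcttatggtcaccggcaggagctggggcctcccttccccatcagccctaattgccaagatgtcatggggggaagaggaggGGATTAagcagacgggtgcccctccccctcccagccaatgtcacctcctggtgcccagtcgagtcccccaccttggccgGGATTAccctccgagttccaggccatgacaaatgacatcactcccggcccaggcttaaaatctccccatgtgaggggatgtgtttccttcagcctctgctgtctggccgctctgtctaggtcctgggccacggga
MPP4 promoter, chr2:201698595-201698894, minus strand: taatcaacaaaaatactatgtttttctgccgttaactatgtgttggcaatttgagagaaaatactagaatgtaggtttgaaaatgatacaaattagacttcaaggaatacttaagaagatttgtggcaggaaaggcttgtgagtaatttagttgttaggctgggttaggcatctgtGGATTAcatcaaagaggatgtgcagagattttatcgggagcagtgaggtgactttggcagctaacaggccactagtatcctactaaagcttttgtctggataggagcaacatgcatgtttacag
EYS promoter, chr6:65707177-65707476, minus strand: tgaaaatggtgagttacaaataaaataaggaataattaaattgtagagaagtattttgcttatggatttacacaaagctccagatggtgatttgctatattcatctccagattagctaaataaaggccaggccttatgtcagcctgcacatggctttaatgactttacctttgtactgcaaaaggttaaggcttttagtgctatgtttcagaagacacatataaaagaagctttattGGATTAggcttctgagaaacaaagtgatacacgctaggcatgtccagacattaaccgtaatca

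Neuronal markers split between the libraries. Of 36 listed genes, 29 were kept, with 13 higher in library 1 and 7 in library 2. These are 44.8% and 24.1% of them, beside 21.5% and 3.38% of all kept genes. The list's median of -0.40 turned to 0.16 with TMM and 0.39 with DESeq2 factors. NEFH, the heavy neurofilament chain, was at 7.76 CPM in library 1 and 132.5 CPM in library 2, and NEFL, the light chain, at 2.32 and 29.7 CPM. CHGA, a granule protein of neuroendocrine cells, was at 64.8 and 166 CPM. Library 2 thus held more of the neurofilament and chromogranin transcripts. STMN2, a microtubule regulator of growing axons, was at 43.3 CPM in library 1 with 0 counts in library 2. This is 411-fold apart when 0 is set to the floor of 3 counts. DCX, the marker of migrating neurons, was at 27.0 and 0.28 CPM (8 counts), and SNAP25, of the synaptic release machinery, at 83.9 and 15.9 CPM. SYP, a synaptic vesicle protein, was close at 162 and 143 CPM, as was the adhesion molecule CNTN1 at 157 and 119 CPM, and both were under 3 CPM in each TAF1C library.

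Glial, pigment cell and muscle markers gave smaller counts. Of 20 glial genes, 14 were kept, 9 were higher in library 1 and 1 in library 2, beside 21.5% and 3.38% of all kept genes. Their median was -1.59, and -1.54 and -1.30 with TMM and DESeq2 factors. CLU, a secreted chaperone, was at 93.4 and 4.14 CPM, SLC1A3, the glutamate transporter of Müller glia, at 79.8 and 9.76 CPM, and AQP4, the water channel, at 9.34 and 0.07 CPM (2 counts, ratio -7.06, interval -10.11 to -5.18). GLUL, glutamine synthetase, was the glial gene higher in library 2, at 155 and 386 CPM. DCT, a melanin enzyme also made in neural precursors, was at 968 and 145 CPM against 0.19 to 0.47 CPM in the TAF1C libraries, whereas TYR, TYRP1 and MITF did not reach 5 CPM in either empty vector library. SERPINF1, the neurotrophic factor of pigment epithelium, was at 32.6 and 228 CPM. Only 7 of 18 pigment cell genes were kept.

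Of 37 muscle genes 13 were kept, 2 higher in library 2 and 8 in library 1, beside 3.38% and 21.5% of all kept genes. The counts were 3 and 4 with TMM and 3 and 3 with DESeq2 factors, and the median went from -1.37 to -0.69 and -0.39. By library totals the higher ones in library 2 were CKM and TNNT1, the slow troponin T, at 2.63 and 48.6 CPM. Most of the muscle list's summed level of 2550 and 2560 CPM came from TTN, at 2094 and 1987 CPM, against 66.5 to 69.5 CPM in the TAF1C libraries. TTN, the gene of the giant sarcomere protein, has the longest coding sequence known in humans, and its CPM is not corrected for length. MYOD1, MYOG and DES, which define the muscle lineage, did not reach 5 CPM in either empty vector library. Since these are bulk libraries, more cells of a type and more RNA per cell cannot be told apart for any of these markers.

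Genes low in the TAF1C libraries numbered 597 of the 14301 kept, 314 of them protein coding. Of the 597, 424 were higher in library 1 and 85 in library 2, beside 21.5% and 3.38% of all kept genes. The other 88 of the 597 lay within 2-fold. At least 5 CPM was reached in library 1 alone by 400, in library 2 alone by 70 and in both by 127. Together they held 1.19% of the counts of library 1 (95% Clopper-Pearson interval 1.185 to 1.194) and 0.699% of those of library 2 (0.6955 to 0.7016). The number fell to 402 with TMM and 353 with DESeq2 factors, which lowered the count higher in library 1 to 226 and 171. Of these genes, 400 and 70 passed the limit of 5 CPM through 1 library alone, where their level had to be the larger of the pair. The counts and shares therefore in part follow from the choice of genes and are given as a description.

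The highest low genes on average were found in both empty vector libraries. AMER2, a membrane regulator of Wnt signalling found in the nervous system, was at 601.5 and 330 CPM. LINC00599, the host transcript of a miR-124 gene, was at 450.4 and 343 CPM. The miR-124-5p signal of the small RNA libraries, on another scale, went the other way, at 73.5 and 87.7 against 106 to 202.7 with TAF1C. INA, the neuronal filament internexin, was at 88.3 and 126 CPM, and LHX3, a homeobox gene of pituitary and motor neurons, at 73.4 and 158 CPM. RD3, which controls the photoreceptor guanylate cyclase, was at 177 and 76.9 CPM. These levels compare with less than 0.5 CPM in each TAF1C library for all 5 genes. Among protein-coding low genes, the largest ratios toward library 1 were those of CDR1, whose antisense strand gives a circular RNA rich in miR-7 sites, at 132 and 0.14 CPM (4 counts, 940-fold), and of the serotonin receptor HTR1A, at 60.2 and 0.07 CPM (2 counts, ratio -9.74, interval -12.79 to -7.89). Without stated strand, reads of both strands at CDR1 cannot be told apart. PRL, prolactin, was at 28.6 and 0.14 CPM (4 counts), and TFF1, a secreted trefoil peptide of mucosa, at 106 and 0.91 CPM.

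Among all protein-coding genes with at least 20 CPM in the higher library, the largest ratio toward library 1 was that of MPPED2, a metallophosphatase gene, at 69.8 and 0.07 CPM (2 counts, ratio -9.96, interval -13.00 to -8.10). DCC, a netrin receptor that guides axons, was at 79.5 and 0.18 CPM (5 counts, 453-fold), and TF, transferrin, at 125 and 0.32 CPM (9 counts, 394-fold). Among genes of 200 CPM or more, ROBO2, the Slit receptor of axons, was at 269 and 0.98 CPM, 274-fold apart. The imprinted genes PEG3, NDN and MEG3 were also higher in library 1, PEG3 at 89.4 and 0.42 CPM (12 counts), NDN at 12.1 and 0.07 CPM (2 counts) and MEG3 at 23.4 and 0.88 CPM. H19, another imprinted transcript, was close at 180.1 and 152.5 CPM. These 4 imprinted genes were picked after their values were seen.

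Among the same protein-coding genes of at least 20 CPM, the largest ratio toward library 2 was that of RPRM, a p53 target that arrests cells in G2, at 0.44 CPM (10 counts) in library 1 and 39.8 CPM in library 2, a ratio of 6.51 (5.62 to 7.57). CKM, given above, came next at 82.0-fold. CCDC144NL was at 0.53 and 43.0 CPM (81.7-fold), and PKIB, an inhibitor of protein kinase A, at 1.84 and 105 CPM (56.8-fold). CA12, a membrane carbonic anhydrase, was at 6.53 and 337 CPM (51.5-fold), with 6.18 to 8.18 CPM in the TAF1C libraries. DSP, desmoplakin of the desmosome, was at 26.6 and 356 CPM against 1.26 to 1.60 CPM. For CA12 library 1 lay with the TAF1C libraries, whereas for DSP both empty vector libraries lay above them. The matrix gene MXRA5 was at 5.61 and 108 CPM, the retinoic acid carrier CRABP2 at 5.70 and 84.5 CPM, and the tumour antigen PRAME at 19.95 and 153 CPM. HOXD13, which patterns the distal limb, had 3 counts in library 1 and was at 8.04 CPM in library 2, a ratio of 5.93 (4.37 to 8.22). HOXC9 was at 0.70 and 5.97 CPM, and these were the only HOX genes, of 39 in the table, to be kept. BOLA2B, at 0.57 and 23.5 CPM, has a near-identical copy, and its count is uncertain.

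The genes around MYCN on chromosome 2 differed in a short run. In RefSeq order among kept protein-coding genes, NBAS, DDX1 and MYCN stood next to each other, with ratios of 3.13, 4.74 and 3.57. NBAS, which works in transport between Golgi and endoplasmic reticulum, was at 80.4 and 704 CPM, with 35.1 to 38.5 CPM in the TAF1C libraries. The antisense transcript MYCNOS was at 7.67 and 98.1 CPM (12.8-fold). It overlaps MYCN, and no source used here says whether the counting used strand, so the reads of the pair cannot be told apart. On either side the ratios dropped below 2-fold, with FAM84A at 0.63 and SMC6, a subunit of a DNA repair complex, at 0.83. TRIB2, beyond FAM84A, was lower in library 2 at 58.0 and 22.02 CPM. With TMM, which adds 0.55, SMC6 and FAM84A also lay past 2-fold. MYC itself was at 71.1 and 49.0 CPM, against 210.1 to 229 CPM in the TAF1C libraries, and its partner MAX at 33.6 and 34.7 CPM.

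A run of 4 genes on chromosome 18 behaved alike. PSTPIP2, ATP5A1, HAUS1 and C18orf25 had ratios of 2.23, 4.38, 4.01 and 3.54. ATP5A1, the alpha subunit of mitochondrial ATP synthase, was at 329 and 6842 CPM, and the TAF1C libraries held 432 to 444 CPM. HAUS1, of the augmin complex of the spindle, was at 44.5 and 718 CPM against 41.0 to 43.8 CPM, and C18orf25 at 63.5 and 740 CPM against 61.4 to 65.0 CPM. For these 3 genes library 1 lay near the TAF1C libraries and library 2 alone stood apart. The flanking genes EPG5 and RNF165 had ratios of -0.77 and -2.53. ZNF516, farther along the same chromosome, was at 149 and 1254 CPM (8.41-fold), and its neighbours TSHZ1 and ZNF236 had ratios of -1.45 and -0.48. LINC00907 on the same chromosome was at 9.25 and 250.5 CPM.

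**Figure D5:**
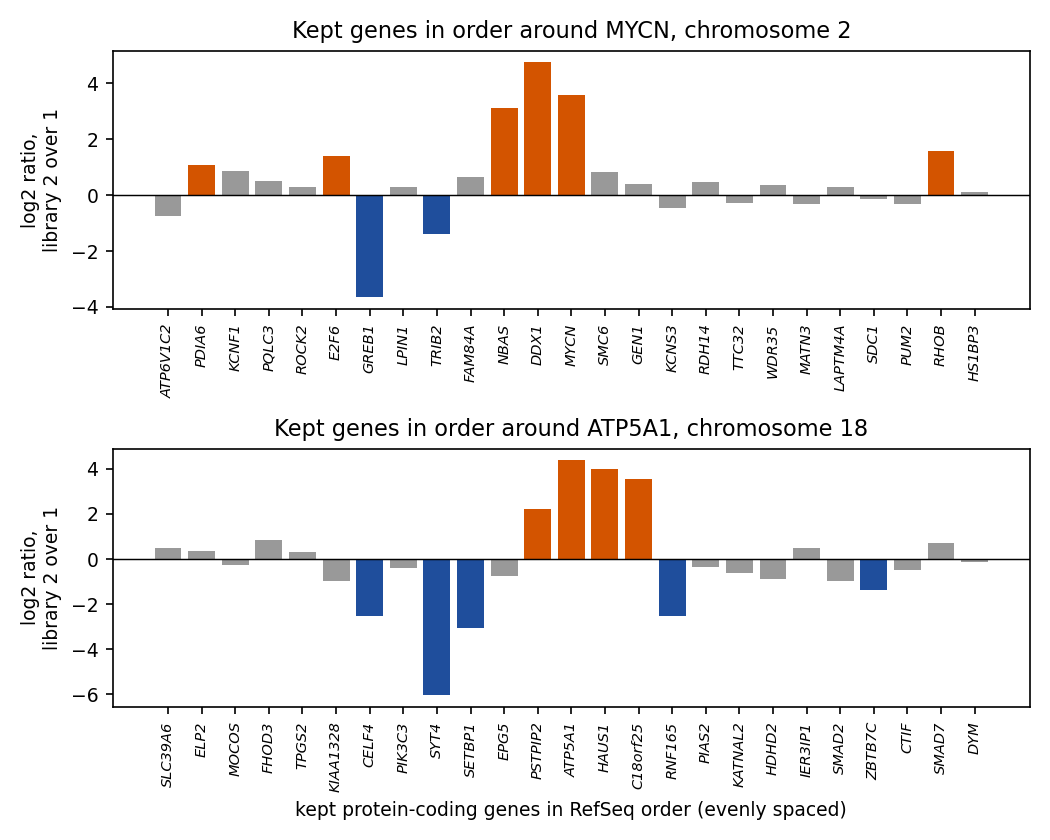
Log2 ratios of kept protein-coding genes in RefSeq order, evenly spaced, with 12 genes on each side of MYCN (upper panel) and of ATP5A1 (lower panel). Orange bars are more than 2-fold higher in library 2 and blue bars in library 1. NBAS, DDX1 and MYCN, and PSTPIP2 to C18orf25, form runs that end at the next kept gene.

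Runs of at least 3 consecutive kept protein-coding genes past 2-fold were counted over the genome after these values were seen. There were 3 toward library 2, the third being PCGF1, TLX2 and DQX1 on chromosome 2, and 99 toward library 1. With 3.38% and 21.5% of kept genes past 2-fold on each side, the counts of runs do not compare directly. The longest runs toward library 1, of 12 genes, lay in the protocadherin clusters on chromosome 5. Of 51 kept protocadherin cluster genes, 45 were higher in library 1 and 0 in library 2. Those of the alpha and gamma clusters share exons or overlap, so their counts are not independent. Over whole chromosomes the median ratio ran from -0.27 (chromosome 6) to 0.08 (chromosome 21). For chromosome 2 it was -0.02 and for chromosome 18 it was -0.04, both by library totals and within that range. The shares of their kept protein-coding genes higher in library 2 were 4.68% and 7.49%, beside 3.17% of all kept protein-coding genes. Toward library 1 the shares were 16.9% and 20.9%, beside 18.6%.

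KRT7 and KRT8, keratins of simple epithelia, VIM and LAMB3 were lower in both empty vector libraries than in each TAF1C library. KRT7 was at 263 and 244 CPM, KRT8 at 120 and 95.6 CPM and VIM, vimentin, at 134 and 138 CPM, and KRT7 stood at 902 to 1004 CPM in the TAF1C libraries. LAMB3, a laminin chain, was at 6.84 and 4.25 CPM against 38.8 to 41.1 CPM. CDH2, N-cadherin, was past 2-fold, at 181 and 59.5 CPM. Of 21 kept keratin and junction genes, 16 lay within 2-fold, a share close to that of all kept genes (10749 of 14301). DSP was higher in library 2 and 4 of the 21 were higher in library 1, beside 3.38% and 21.5% of all kept genes. EPCAM, an adhesion molecule of simple epithelia, was among those 4, at 17.4 and 1.09 CPM and at 0.05 to 0.41 CPM in the TAF1C libraries. Of 19 TGF-beta and YAP targets 18 lay within 2-fold, and of 14 inflammatory genes 13 did. AXL, a receptor kinase that was chosen after its values were seen, was at 367 and 349 CPM against 1009 to 1042 CPM. The medians of these 3 lists (-0.34, -0.03 and -0.22) turned positive with TMM (0.27, 0.52 and 0.48), so they set no direction.

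Mesenchymal and matrix genes were more uneven. Of 34 kept, 13 were higher in library 1 and 0 in library 2, beside 21.5% and 3.38% of all kept genes. Their median of -0.64 was -0.13 with TMM and 0.15 with DESeq2 factors. COL1A2 and COL3A1, fibrillar collagens of fibroblasts, were at 23.9 and 1.76 CPM and at 14.2 and 0.88 CPM. FN1, fibronectin, was at 285 and 178 CPM against 2258 to 2325 CPM in the TAF1C libraries. Of 8 kept endothelial markers 5 were higher in library 1 (median -2.39), and of 7 kept fibroblast markers 4 were (median -2.27). Both medians stayed under -1 with TMM and DESeq2 factors.

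By library totals, though not under every scaling, proliferation genes were alike in both libraries. All 30 S phase genes and all 31 G2 and mitosis genes lay within 2-fold by library totals, with medians of 0.15 and 0.25. TMM put 4 and 3 of them past 2-fold toward library 2, and DESeq2 factors 11 and 19. Their medians were 0.70 and 0.81 with TMM and 0.94 and 1.05 with DESeq2 factors. The 19 kept cholesterol synthesis genes also lay within 2-fold by library totals, with a median of -0.02. TMM put 3 of them past 2-fold toward library 2 and DESeq2 factors 4, with medians of 0.54 and 0.78. Of 22 p53 targets 4 were higher in library 2 and 0 in library 1, beside 3.38% and 21.5% of all kept genes, and the median of 0.45 was 1.08 with TMM and 1.32 with DESeq2 factors. TMM put 11 of them past 2-fold toward library 2 and DESeq2 factors 14. GDF15, a stress cytokine, was at 3.16 and 13.1 CPM. CDKN1A, which encodes the cell cycle inhibitor p21, was at 62.4 and 121 CPM (1.94-fold) and MDM2, the p53 ligase, at 119 and 218.5 CPM (1.84-fold).

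Genes of low oxygen and glycolysis had no side that held under every scaling. Of 21 kept, 8 were higher in library 1 and 1 in library 2 by library totals, beside 21.5% and 3.38% of all kept genes. The counts were 5 and 1 with TMM and 4 and 5 with DESeq2 factors, and the median went from -0.74 to -0.18 and 0.05. EGLN3, an oxygen sensor, was at 4.65 and 29.3 CPM. VEGFA, the vascular growth factor, was at 171 and 34.2 CPM, PDK1, which limits entry of pyruvate into mitochondria, at 146 and 27.0 CPM, and PFKFB4 at 33.5 and 7.27 CPM. The TAF1C libraries held 45.2 to 49.5 CPM of VEGFA and 16.7 to 18.3 CPM of PDK1. Of 20 kept stress response genes 4 were higher in library 2 and 1 in library 1, with 7 and 1 under TMM and 13 and 1 under DESeq2 factors. TAF1C itself, the subunit of the RNA polymerase I factor SL1 that the study expressed, was at 76.0 and 76.8 CPM.

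Gene class and length moved with the ratio. Of 12662 kept protein-coding genes 18.6% were higher in library 1, against 51.6% of 403 antisense genes, 45.0% of 380 lincRNAs and 42.1% of 549 pseudogenes. Toward library 2 the shares were 3.17%, 5.21%, 9.47% and 2.73% in the same order. Among protein-coding genes placed in RefSeq, split by gene length, introns included, into 5 sets of like size, the median ratio was 0.08 in the set of shortest genes and -0.48 in that of the longest. In the longest set 32.5% were higher in library 1, against 13.9% in the shortest. Cytosolic ribosomal protein genes, which are short, had a median of 0.48, with 5 of 81 higher in library 2 (6.17%, beside 3.38% of all kept genes). Zinc finger genes named ZNF had a median of -0.57, with 120 of 448 higher in library 1 (26.8%, beside 21.5% of all kept genes). The medians of -0.48 and -0.57 lay in the range where a ratio turned positive under at least 1 other scaling. Of 14 kept mitochondrially encoded genes 2 were higher in library 2, and their summed level was 374 and 590 CPM against 342 to 563 CPM in the TAF1C libraries. The share higher in library 1 also moved with the level limit, with 8845 of 23294 genes at 1 CPM and 1232 of 9586 at 20 CPM. Classes were not matched for level. The part of level, of the 5 CPM limit, of gene length, of intron reads and of RNA quality in the ratios was not tested.

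The small RNA libraries with the same labels did not show a like spread. Their miRNA signal had been divided by the authors by a factor per library. The labels do not say whether a small RNA library shares its RNA with the long RNA library of the same number. Of 241 miRNAs with a signal of at least 100 in either empty vector library and above 0 in both, 0 lay past 2-fold (0.0%), with an SD of 0.154, a median of 0.02 and a range from -0.89 to 0.59. The limit of 100 was chosen after the values were seen, and 17 miRNAs were listed at 0 in 1 of the libraries alone. These 17 were left out. Kept long RNA genes with 0 counts, 3 in library 1 and 36 in library 2, were compared at the floor, so the assays were filtered unlike. Mature sequences from RefSeq are shown for miR-9-5p, a neural miRNA, and for miR-183-5p and miR-96-5p, of a cluster known from sensory cells, because these mark cell types named above. Capitals mark the seed, bases 2 to 8.
hsa-miR-9-5p: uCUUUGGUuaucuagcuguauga
hsa-miR-183-5p: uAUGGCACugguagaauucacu
hsa-miR-96-5p: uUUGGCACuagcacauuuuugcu

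The signal of miR-9-5p was 14870 in library 1 and 16090 in library 2, a log2 ratio of 0.11, and 342, 454 and 357 in the TAF1C libraries. For miR-9-5p both empty vector libraries thus stood far above the TAF1C libraries and close to each other. Other listed neural miRNAs did not share this excess. The signal of miR-124-5p was 73.5 and 87.7 against 106 to 202.7, and that of miR-7-5p 102200 and 106700 against 216300 to 250400. For miR-218-5p it was 270.2 and 265.8 against 738.1 to 846.9, and miR-204-5p was also lower. The signal of miR-128-1-5p overlapped the TAF1C range, and miR-137-5p was slightly above it, at 417.3 and 393.7 against 290.1 to 356.5. The signal of miR-183-5p was 3432 and 3613, against 2276 to 2811, and that of miR-96-5p, which shares most of its seed, was 1033 and 975, against 682 to 809. The third miRNA of the cluster, miR-182-5p, was at 6095 in library 1 and listed at 0 in the other 4 libraries. A listed 0 beside such a value can be a failed estimate, so no ratio is given. For muscle, miR-133a-5p was listed at 0 in both empty vector libraries while miR-1-3p was at 88.7 and 92.3. At miR-9-5p and, by library totals, at OTX2, CRX and NEUROD1 the empty vector libraries lay close to each other. At RCVRN, MYCN and DDX1 the long RNA libraries did not.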

How the data were processed

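Long RNA libraries came from NEBNext Ultra after ribosomal depletion of mirVana-isolated RNA, per the labels' protocols. The submitters' processing notes list HISAT2, Bowtie2 2.2.4, Cufflinks 2.2.1, Trimmomatic 0.36, DESeq2 and the build hg19, with no role stated for any of them. The counter, the annotation and the handling of reads that match several genes are not given in the sources used here. For long RNA the authors deposited raw counts on 57773 Ensembl genes. For small RNA they deposited miRNA signal under 612 names, scaled by the authors within each library.

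Rows were summed by symbol (233 symbols stood on several rows, and 29 symbols that a spreadsheet had turned into numbers were replaced by their Ensembl ID). CPM used library totals, where 1 CPM was 22.8 and 28.5 counts in empty vector libraries 1 and 2, and a count of 0 was set to 3 counts (0.132 and 0.105 CPM) in a ratio. Intervals and this floor cover counting error only. TMM factors came from edgeR 4.0.16 and size factors from DESeq2 1.42.0, over all 5 long RNA libraries and in R 4.3.3, and neither tool was used for a test. Tables and plots came from Python 3.11.15 with pandas 2.3.3, scipy 1.17.1 and matplotlib 3.10.9, and the ratio and interval were tested on simulated data. RefSeq (GRCh38.p14) gave promoters, gene order and gene lengths, and no coordinate of it was set against hg19.

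The members, the 38 gene lists and the markers were chosen with earlier results of these data known. Named genes were the 6 markers and the 12 largest ratios in each direction among protein-coding genes of at least 20 CPM. To these came the 12 largest ratios in each direction and the 12 highest means among low genes, the 6 largest ratios in each direction at 200 CPM or more, up to 6 high members and the extreme members of each list, and the neighbours of MYCN. The text names part of these. Other list members, the neighbours of ATP5A1 and ZNF516, the gene families, the motifs and the definition of a run were chosen after values were seen. Y-linked genes and XIST were not named or plotted, and piRNA tables were not used. Some list members are not reported here.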

Additional observations from a re-analysis of the deposited data

How the results depend on the processing

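No paired analysis was possible because both libraries compared are the replicates of 1 group and no result comes from a test. The median ratio of kept genes (-0.18) was 0.42 with TMM, 0.67 with DESeq2 factors, -0.19 with the total of protein-coding nuclear genes, -0.54 and -0.06 with a limit of 1 or 20 CPM, and -0.91 with no filter beyond 3 counts. Genes higher in library 2 (483) then numbered 1957 with TMM, 3660 with DESeq2 factors, 726 and 297 at 1 or 20 CPM, and 1490 with no filter. Genes higher in library 1 (3069) numbered 1635, 1244, 8845, 1232 and 19118 in the same order. Low genes (597) numbered 353 with DESeq2 factors, 3593 and 141 at 1 or 20 CPM, and 264 and 1200 when low meant below 0.25 or 1 CPM. Those higher in library 2 (85) were 200, 29, 45 and 130 under the last 4 settings. Those higher in library 1 (424) were 226 with TMM, 171 with DESeq2 factors, and 2822, 80, 188 and 864 under the same 4.

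The share of counts in low genes was 1.70 times as large in library 1. The ratio was 1.62 with TMM, 1.54 with DESeq2 factors, 1.74 with the protein-coding total, 2.0 and 1.48 at 1 or 20 CPM, 2.06 and 2.0 below 0.25 or 1 CPM, and 1.76 to 1.81 when a TAF1C library was left out. Counts by table row in place of symbol were 484 and 3067. Of 96 values of 16 tracked genes under alternatives, 91 stayed on their side of 2-fold, 5 moved (those of OTX2, CRX and AIPL1 given in the report) and 0 called values reversed. With 1 library on each side, no interval covers the spread between cultures, and under about 5 CPM counting error widens the ratios.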

Other observations

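Counts past 2-fold in lists not described above are by library totals and stand beside 3.38% and 21.5% of all kept genes on the sides of library 2 and library 1. Of 18 kept interferon genes 1 was higher in library 2 and 3 in library 1, and of 6 kept antigen presentation genes 0 and 4 were, with 7 and 6 of the 18 listed genes at 0 counts in libraries 1 and 2. Of 7 kept genes of a list of EGF receptor family members, their ligands and MET, 0 were higher in library 2 and 2 in library 1, the receptor ERBB3 and the ligand NRG1, at 7.06 and 3.27 CPM and at 31.3 and 1.48 CPM. Of 11 kept heat shock genes 1 was higher on each side, as it was among 11 kept targets of NRF2, a factor of the oxidative stress response. Of 15 kept immediate early genes, which answer growth signals within minutes to hours, 3 were higher in library 2 and 1 in library 1. Of 16 kept nuclear long noncoding RNAs 0 were higher in library 2 and 5 in library 1, among them KCNQ1OT1, an imprinted transcript, at 579 and 146 CPM. NEAT1, the scaffold of paraspeckles, was at 683 and 523 CPM.

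Markers of other cell types were sparse. Of 16 blood cell genes 6 were kept, with 0 higher in library 2 and 2 in library 1, and their summed level was 109 and 61.8 CPM against 46.0 to 52.1 CPM in the TAF1C libraries. Of 16 hepatocyte genes 3 were kept, TF among them, and of 19 genes of differentiated airway 3 were kept, with 0 and 2 higher in libraries 2 and 1. Of 19 melanoma and neural crest genes 11 were kept, with 3 higher in library 2 and 5 in library 1. Replication-dependent histones had 8 of 63 kept genes higher in library 2 and 2 in library 1, HIST1H3E at 30.1 and 217 CPM. Of 203 kept solute carriers 10 were higher in library 2 and 48 in library 1, of 7 GABA receptor genes 3 and 2, and of 2 crystallins 0 and 1. Of 8 gene families defined by symbol, the others are those given in the report.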
